A study of Mus musculus with 2 samples.

Results

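Haemoglobin transcripts of the adult mouse come from the alpha genes Hba-a1 and Hba-a2 and the beta genes Hbb-bs and Hbb-bt. The barcodes described here are those in which these 4 genes made up at least 40% but less than 90% of all unique molecular identifiers (UMIs, counted molecules). Each also had at least 100 detected genes and at most 20% of its UMIs from mitochondrially encoded genes. There were 423 such barcodes, 238 in replicate 1 and 185 in replicate 2, of 819 barcodes that passed the gene and mitochondrial limits and 1857 in all. They made up 50.5% of the passing barcodes in replicate 1 (exact binomial 95% interval 45.9 to 55.1%) and 53.2% in replicate 2 (47.8 to 58.5%), or 51.8% ± 1.86 (SD, n = 2). Most of the remaining passing barcodes, 145 and 121, held at least 90% haemoglobin UMIs and serve below as the comparison. The other 88 and 42 held less than 40%.

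Both libraries were made from blood of wild-type mice with the burn/tenotomy injury, a skin burn combined with a cut tendon that leads to bone formation in soft tissue. Whole blood went through the iChip, a microfluidic device that sorts nucleated cells away from most red cells and platelets, and 10x Chromium droplets then captured the recovered cells, labelled as circulating mesenchymal progenitor cells (cMPCs) and blood cells. The 2 libraries form 1 group, so no treatment is compared. The sources used here give no strain, age or time after injury and do not say whether the libraries came from separate mice. The p-values below compare 2 sets of barcodes within each library. They rest on how far the 2 libraries differ in that change, with a spread mostly shared across genes. That spread may therefore be technical.

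Red cells are made in the bone marrow from nucleated erythroblasts that fill with haemoglobin, expel the nucleus and enter the blood as reticulocytes. A reticulocyte has no nucleus to make new RNA. Over its last maturation it clears its mitochondria, ribosomes and remaining messages while its membrane skeleton is remodelled, so its RNA is dominated by globin with a small set of long-lived other messages.

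These barcodes were selected on their measured haemoglobin share, number of detected genes and mitochondrial share, which are given only as a description. The median haemoglobin share was 81.1% in replicate 1 and 77.4% in replicate 2, against 92.9% and 93.6% in the barcodes with at least 90%. The shares ran without a gap through the upper limit: the nearest barcodes on either side of it lay at 89.97% and 90.005% in replicate 1 and at 89.99% and 90.003% in replicate 2. The lower limit fell in a thinner stretch, with neighbours at 35.1% and 40.5% in replicate 1 and 39.5% and 40.1% in replicate 2.

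The barcodes with the lower share held fewer globin UMIs and somewhat more non-globin UMIs. The median barcode held 3200.5 globin UMIs in replicate 1 and 2727 in replicate 2, against 10259 and 11318 in the barcodes with at least 90%. Its non-globin UMIs numbered 845.5 and 835, against 724 and 732. Its detected genes, 138 and 134, stood beside 145 and 151. The mean number of non-globin UMIs per barcode was 935 ± 13.6 (SD over the 2 libraries) and 808 ± 7.18 in the comparison. Non-globin depth per barcode differed less between the 2 sets than globin depth did. The sets were split on the globin share and have the same lower limit of detected genes, so this describes the selection.

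In total 224865 non-globin UMIs in replicate 1 and 171226 in replicate 2 lie behind the levels below, 18.3% and 19.2% of all UMIs of these barcodes. At this depth a gene with no UMI in a library could still have a level of 13.3 and 17.5 per 1e6 non-globin UMIs (3 counts of the total, counting error only). A UMI was found for 3080 genes in replicate 1 and 2344 in replicate 2.

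The balance of the globin genes was alike in the libraries. Hba-a1 gave 29.5% and 30.5% of the 4 adult globins' UMIs and Hba-a2 gave 23.4% and 25.5%. Hbb-bs gave 37.1% and 34.6% and Hbb-bt gave 9.98% and 9.40%. In the comparison barcodes Hba-a1 gave 26.7% and 27.1% and Hbb-bs 41.2% and 39.5%. Since the sum of these genes was the rule, no test was made of them. Embryonic globins were near or at 0: Hbb-y had 3 and 1 UMIs, and Hba-x, Hbb-bh1 and Hbb-bh2 had 0. The theta globins Hbq1b and Hbq1a had 37 and 29 and 26 and 7 UMIs.

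The label's other genes were checked next. Alas2, which makes the committed step of haem synthesis in red cells, was found in 100% of the barcodes of each library. Bpgm, whose product makes the phosphoglycerate that lowers the oxygen affinity of haemoglobin, was found in 99.2% and 99.5%. In the barcodes under 40% haemoglobin, Alas2 was found in 5.68% and 35.7%. Their median number of non-globin UMIs per barcode was 2029 and 1148, against 845.5 and 835 here. Slc4a1, the band 3 anion exchanger, was found in 63.9% and 67.6% of the 40 to 90% barcodes. These genes are those of red cells.

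Xpo7, Tmcc2 and Trak2, named as markers for this range, were sparse. Xpo7, an exportin used by the nucleus of maturing red cells, was found in 11.3% and 10.8% of barcodes. Trak2, an adaptor for mitochondrial transport, was found in 13.4% and 16.8%. Barcodes under 40% haemoglobin had Xpo7 in 14.8% and 11.9% and Trak2 in 14.8% and 19.0%. Those barcodes were deeper, with a mean of 2817 and 3270 non-globin UMIs against 945 and 926 here, so detection is not compared at like depth. Per 1e6 non-globin UMIs, Xpo7 stood at 414 and 193 here against 56.5 and 43.7. Trak2 stood at 298 and 228 against 72.6 and 80.1. With at most 500 genes per barcode, Xpo7 stood at 205 and Trak2 at 169 in replicate 1. In the comparison barcodes Xpo7 stood at 161 and 185, near its level here in replicate 2, and Trak2 at 67.8 and 30.9. Tmcc2, a transmembrane and coiled-coil protein, was found in 51 of 238 and 37 of 185 barcodes, or 21.4% and 20%. Under 40% haemoglobin it was found in 1 of 88 and 4 of 42, or 1.14% and 9.52%. In the comparison barcodes it was found in 24 of 145 and 20 of 121, or 16.6% and 16.5%. The exact binomial intervals of these last shares overlapped those of the barcodes described here in each library. Under 40% haemoglobin the interval lay apart from that of the barcodes described here in replicate 1 (0.0288 to 6.17% against 16.4 to 27.2%). In replicate 2 these intervals overlapped (2.66 to 22.6% against 14.5 to 26.5%).

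A single barcode carried much of the sum of these markers in replicate 1. It had 44.5% haemoglobin and 609 detected genes, and it held 48 of the 93 Xpo7 UMIs, 28 of the 83 Tmcc2 UMIs and 30 of the 67 Trak2 UMIs. It also held 41 UMIs of Malat1 and 18 of Neat1, RNAs retained in the nucleus, 21 of Sox6, a transcription factor of red cell precursors, 53 of Rsad2 and 49 of Isg15, interferon-response genes, and 0 UMIs of the other-cell markers. Of its non-globin UMIs 6.57% were Gm42418. A second barcode of replicate 1 had 54.6% haemoglobin, 841 genes, 19.8% mitochondrial UMIs, 61 Malat1 UMIs and 35 UMIs of 13 leukocyte marker genes, among them Arhgap15 with 8 and Ebf1 with 6. No other barcode in the range had more than 329 genes in replicate 1 or 363 in replicate 2. Malat1 had 8 UMIs in all remaining barcodes of replicate 1 and 1 in replicate 2, against 9463 and 3808 in the barcodes under 40%. These 2 barcodes were singled out after their values were seen, and results that rest on them are also given without them.

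**Figure D1:**
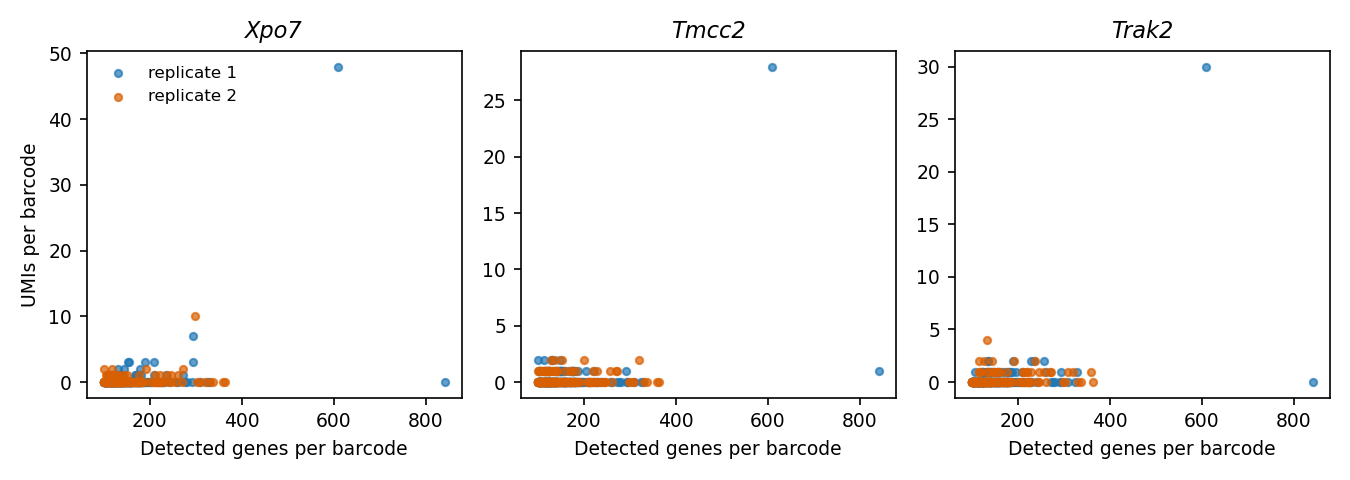
UMIs of Xpo7, Tmcc2 and Trak2 in each of the 423 barcodes (vertical axes, UMIs per barcode) against its number of detected genes (horizontal axis), by library. The barcode of replicate 1 with 609 genes holds 48, 28 and 30 UMIs of them and stands far above all others, while the barcode with 841 genes holds 0, 1 and 0.

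Markers of other cells were at or near 0. The 42 leukocyte markers summed to 48 UMIs in 14 barcodes of replicate 1 and 11 UMIs in 9 barcodes of replicate 2, with 20 of the 42 genes seen. The same list gave 7952 and 379 UMIs in the barcodes under 40%. Ptprc, the pan-leukocyte CD45 gene, had 2 UMIs in replicate 1. The 20 platelet markers gave 14 and 11 UMIs, with Pf4 at 0. The 35 mesenchymal and mesothelial markers gave 8 and 10 UMIs, spread over 5 and 10 barcodes. Endothelial markers gave 2 and 0, and epithelial markers 0 and 1. No gene of these 5 lists had enough UMIs to be tested.

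Most of the non-globin RNA came from few genes. The 20 with most UMIs held 71.5% of it in replicate 1 and 72.3% in replicate 2. Gm42418 alone held 50.1% and 48.9% (mean 49.5% ± 0.855, SD, n = 2), against 35.3% and 32.1% in the barcodes with at least 90% haemoglobin. The values of the 2 sets did not overlap, though how many other genes separated in this way was not counted. Gm42418 UMIs also count in the total behind the haemoglobin share, so the rule itself bears on this difference. Gm42418 is annotated as a long noncoding RNA on chromosome 17 (mm10, 39846958 to 39848788, plus strand), at a locus that shares sequence with ribosomal RNA and is known to collect ribosomal RNA reads in mouse libraries. AY036118, the fourth gene, lies inside it on the opposite strand (39847113 to 39848035). The sources used here do not say whether counting used the strand, so reads of these 2 loci cannot be told apart with certainty.

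Among single barcodes, Gm42418 took from 6.57% to 79.8% of the non-globin UMIs in replicate 1, with a median of 51.8%. In replicate 2 it took from 12.6% to 76.1%, with a median of 49.9%. Its share was higher where haemoglobin was lower within the range: Spearman's rho was -0.54 over 238 barcodes and -0.60 over 185. Barcodes of a library share that library, and both shares come from the same barcode's UMIs, so these are descriptions with no test. The number of non-globin UMIs per barcode showed no such relation, with rho of -0.10 and -0.00040. The mitochondrial share of all UMIs had a rho of -0.72 and -0.73 with the haemoglobin share, which is part of the same total.

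**Figure D2:**
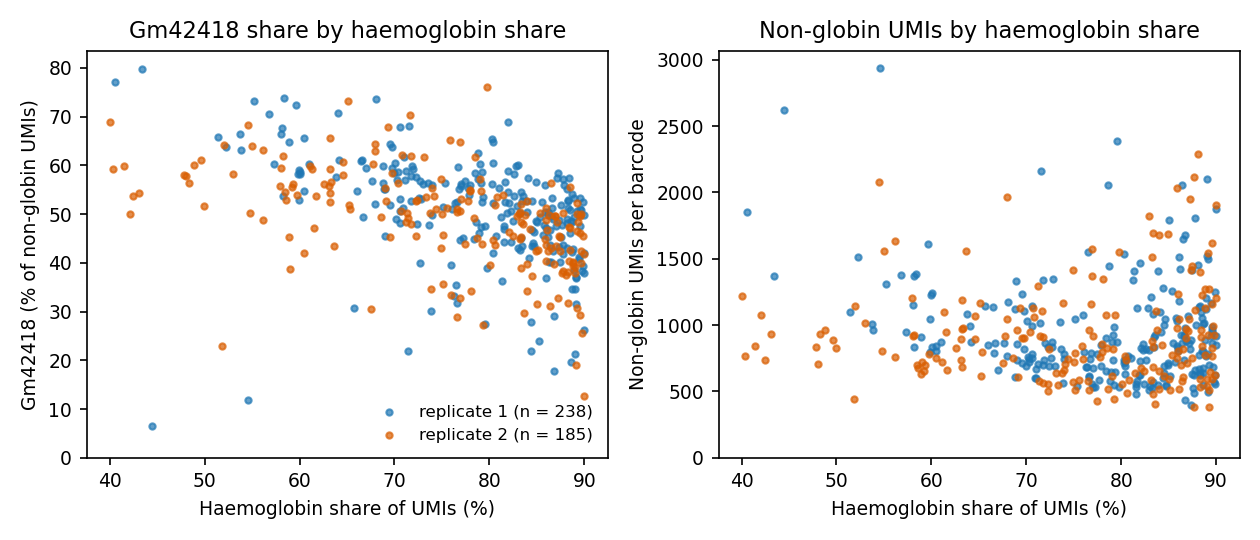
Each point is 1 barcode with 40 to 90% haemoglobin (238 in replicate 1, 185 in replicate 2). The horizontal axes give its haemoglobin share of all UMIs (%). On the left, the Gm42418 share of non-globin UMIs (%) is lower toward 90% (rho of -0.54 and -0.60), while on the right the number of non-globin UMIs had a rho of -0.10 and -0.00040.

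After Gm42418 the leading genes reported here, in order of UMIs and not of level per length, were Cmss1, Camk1d, AY036118, Alas2, Pabpc1, Mkrn1, Tent5c, Bpgm, Cdk8, Lars2, Gpx1, Epb41, Ubb, Gphn, Bnip3l, Ftl1 and Sec61g. They are described here as 2 kinds, grouped after their values were seen. The first is known from reticulocytes: haem synthesis (Alas2), ubiquitin and its ligases (Ubb, Mkrn1), clearance of mitochondria (Bnip3l), peroxide removal (Gpx1), iron storage (Ftl1, ferritin light chain) and the membrane skeleton (Epb41, protein 4.1). Pabpc1, which binds the poly(A) tail of messages, and Tent5c, a poly(A) polymerase that stabilises messages, belong with them, as does Bpgm.

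The second kind (Cmss1, Camk1d, AY036118, Cdk8, Lars2 and Gphn) was also present in the barcodes under 40% haemoglobin. Camk1d gave 3.96 UMIs per 100 UMIs of Gm42418 in the 40 to 90% barcodes of replicate 1, 3.89 in those with at least 90% and 5.34 in those under 40%. In replicate 2 these ratios were 5.68, 5.42 and 4.66. Gphn gave 1.27, 1.23 and 2.05 in replicate 1 and 1.62, 1.40 and 1.83 in replicate 2. Lars2 gave 1.40, 1.32 and 2.22, and 2.03, 1.81 and 2.77. Cmss1 gave 8.07, 9.42 and 9.78, and 9.12, 10.3 and 7.82. Cdk8 gave 1.39, 1.81 and 2.44, and 2.09, 2.56 and 2.28. AY036118 varied more, with 4.598, 6.93 and 1.94 and with 4.36, 7.33 and 2.02, and like Alas2 it was highest at 90% or more and lowest under 40%. Alas2 gave 3.33, 7.64 and 0.0654 in replicate 1 and 3.32, 8.59 and 0.239 in replicate 2. The source of this second kind was not tested.

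The 40 to 90% barcodes were then compared with those of at least 90%, to ask how the composition of the non-globin RNA differed. UMIs were summed per set and library, giving 4 sums, and 504 genes that were neither globin nor mitochondrial had enough counts for a quasi-likelihood test in edgeR that blocked on the library. TMM scaling was used, which sets the bulk of genes level between sums. Since Gm42418 took up more of the RNA here, a level per 1e6 non-globin UMIs reads lower than the TMM-scaled value: the median gene changed by -0.09 with TMM scaling and by -0.53 with total UMIs alone. Fold changes below are log2 values on the TMM scale, with their standard error (SE) and Benjamini-Hochberg adjusted p, and levels are UMIs per 1e6 non-globin UMIs or mean UMIs per barcode, as stated.

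At an adjusted p under 0.05, 76 genes (15.1% of those tested) were higher in the 40 to 90% barcodes and 87 (17.3%) were lower, together 32.3%. With total UMIs alone the split moved to 25 higher and 182 lower. Without the 2 gene-rich barcodes it was 95 and 107 of 498 genes. Of the 20 leading genes 10 were higher, 8 lower and 2 not called, among these Tent5c at 0.12 (adjusted p of 0.355).

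The second kind of leading genes was higher with TMM scaling. Gm42418 averaged 474 and 453 UMIs per barcode, against 287 and 258 in the comparison. Its log2 fold change was 1.02 (SE 0.0849, adjusted p = 0.00213). Gm42418 is part of the total that sets the haemoglobin share, so the rule itself favours more of it here. For this gene the test is therefore only a description. Camk1d, a calcium-dependent kinase gene, averaged 18.8 and 25.7 UMIs per barcode against 11.2 and 14.0, a change of 1.07 (SE 0.0818, adjusted p = 0.00213). Lars2, the mitochondrial leucyl-tRNA synthetase, changed by 1.15, Gphn, the scaffold protein gephyrin, by 1.14, Cmss1 by 0.82 and Cdk8, a Mediator kinase, by 0.68. Of the first kind, Epb41 (0.60) and Pabpc1 (0.46) were higher. Cdk8, Epb41 and Pabpc1 kept their direction with total UMIs alone but no longer passed the threshold. AY036118 changed by 0.35 (adjusted p = 0.0223) with TMM scaling but by -0.09 with total UMIs alone, so its direction depends on the scaling.

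Alas2, whose gene lies on chromosome X (mm10, 150547375 to 150570638, plus strand), had 3748 and 2782 UMIs in the 40 to 90% barcodes. That was 16668 and 16247 per 1e6 non-globin UMIs, against 26998 and 27597 in the comparison. The 2 sets did not overlap, though how many other genes separated in this way was not counted. The larger Gm42418 share also lowers other genes' levels on this scale. Per barcode Alas2 averaged 15.75 and 15.04 UMIs against 22.0 and 22.2. The TMM-scaled change was small, -0.26 (SE 0.0771, adjusted p = 0.0451), and it missed the threshold in 5 of the alternatives tried.

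Gpx1, the cytosolic glutathione peroxidase that removes hydrogen peroxide (chromosome 9, 108338903 to 108340343, plus strand), fell more. Its level was 7476 and 7674 per 1e6 non-globin UMIs, against 20130 and 20322. Per barcode that was 7.063 and 7.103 UMIs against 16.4 and 16.3. The change was -0.95 (SE 0.0784, adjusted p = 0.00213). Ubb, a polyubiquitin gene, averaged 6.82 and 6.42 UMIs per barcode against 14.4 and 16.5, a change of -0.96 (SE 0.0970). Ftl1 averaged 6.03 and 4.95 against 13.5 and 13.1, a change of -1.03 (SE 0.0929). Bpgm averaged 8.61 and 7.68 against 15.3 and 15.9, a change of -0.68 (SE 0.0899). In all 4 genes both libraries of the 40 to 90% barcodes lay below both of the comparison. How many of all genes tested separated in this way was not counted, so this describes only these genes. Smaller falls were seen for Sec61g, a subunit of the protein translocation channel (-0.49), Mkrn1 (-0.37) and Bnip3l (-0.36).

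**Figure D3:**
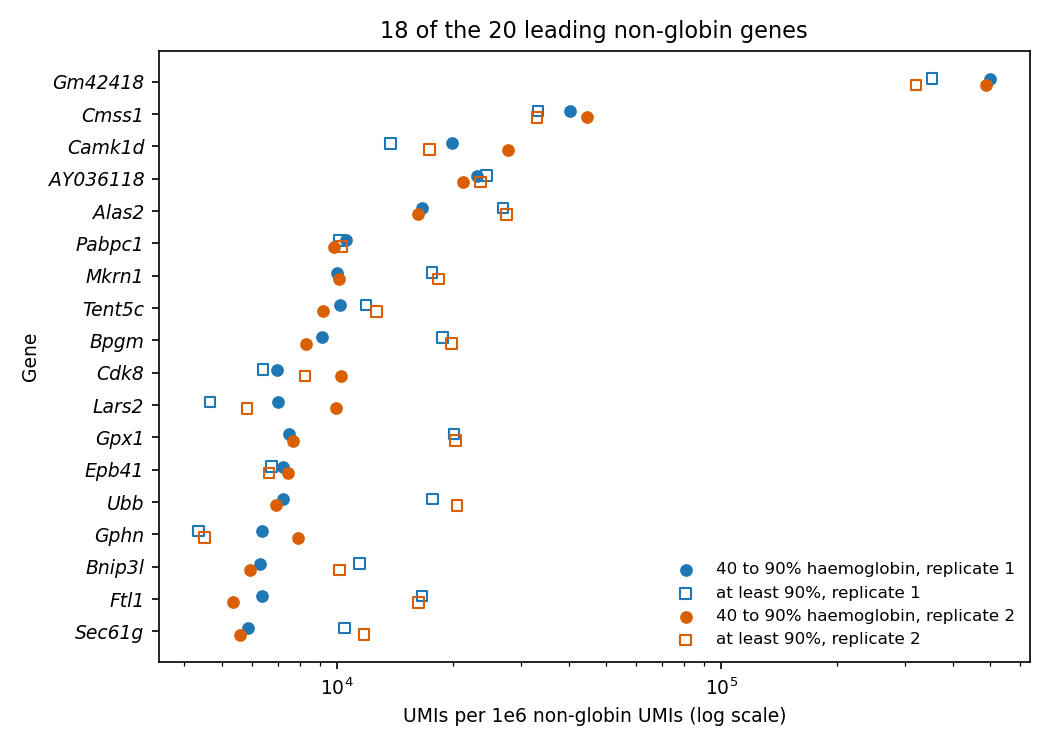
Levels of 18 of the 20 non-globin genes with most UMIs (rows), as UMIs per 1e6 non-globin UMIs on a log axis. Filled circles are the 40 to 90% barcodes and open squares those with at least 90% haemoglobin, coloured by library; Gpx1, Ubb, Ftl1 and Bpgm lie to the left of their squares, and Gm42418, Camk1d, Lars2 and Gphn to the right.

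The same genes were graded within the range. Split by haemoglobin share at 60% and 80%, replicate 1 had 20, 91 and 127 barcodes and replicate 2 had 30, 75 and 80. Gpx1 rose from 2122 to 4955 and 10461 per 1e6 non-globin UMIs in replicate 1 and from 1816 to 4536 and 12527 in replicate 2. Alas2 stood at 7096, 14047 and 20708, and at 9973, 14407 and 20132. Slc4a1 ran the other way, with 3255, 1987 and 1667 in replicate 1 and 2671, 2622 and 1771 in replicate 2, as did Gm42418. Epb41 stayed between 5560 and 7671. The ordering variable is the one that chose the barcodes, and the bin of 40 to 60% in replicate 1 holds both gene-rich barcodes, so these values are a description without a test.

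**Figure D4:**
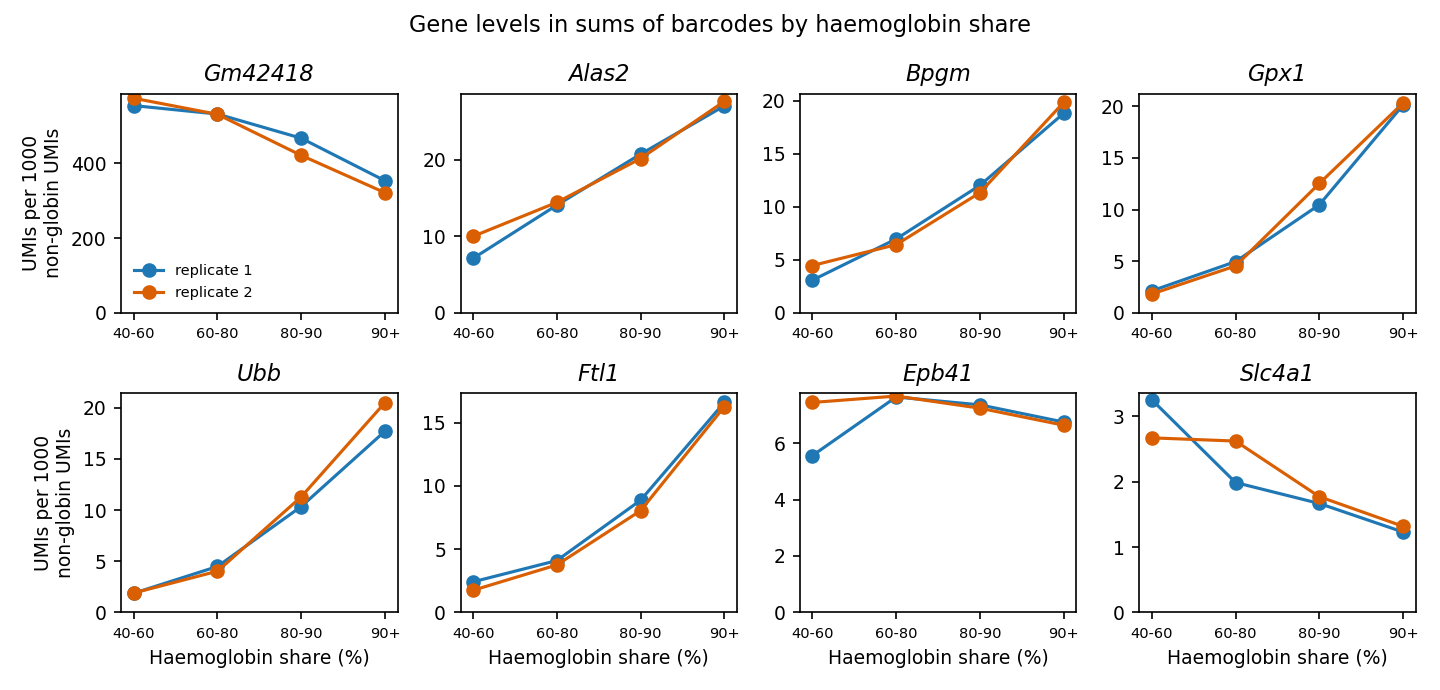
Levels of 8 genes (UMIs per 1000 non-globin UMIs) in sums of barcodes with 40 to 60%, 60 to 80%, 80 to 90% and at least 90% haemoglobin, 1 line for each library. Gpx1, Ubb, Ftl1, Bpgm and Alas2 climb across the bins, Gm42418 and Slc4a1 descend, and Epb41 stays between 5560 and 7671 per 1e6.

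In the list of 40 membrane and membrane skeleton genes, 17 could be tested. Stom (stomatin), Epb42 (protein 4.2), Cd44 (an adhesion receptor), Slc4a1, Ank1 (ankyrin, which ties band 3 to spectrin) and Epb41 were higher (6 of 17, beside 15.1% of all genes tested), 0 were lower, and the median over the 17 was 0.55, beside -0.09 over all genes tested. The same 6 were called without the gene-rich barcodes. Slc4a1 had 444 and 385 UMIs against 145 and 128, or 1975 and 2248 per 1e6 non-globin UMIs against 1230 and 1317. Both libraries of the 40 to 90% barcodes lay above both of the comparison, though how many other genes did so was not counted. The change of Slc4a1 was 1.19 (SE 0.115, adjusted p = 0.00252). With total UMIs alone Slc4a1 was the only one of the 6 still called higher. Cd24a, a surface glycoprotein, was then called lower (-0.50, against -0.06 with TMM scaling and no call). The list's median was then 0.11, beside -0.53 over all genes tested. The other 11, among them the beta spectrin gene Sptb, were not called.

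Of 83 ribosomal protein genes, a list made after the values were seen, 68 were tested, 0 were higher, 26 were lower (beside 17.3% of all genes tested) and 42 were not called, with a median of -0.63. The lower calls numbered 46 with total UMIs alone, beside 182 of all 504 genes. Their summed level was 22307 and 20785 per 1e6 non-globin UMIs, against 46823 and 53280. Rpl41 changed by -1.05 and Tpt1, a translation-associated tumour protein, by -0.93. Of 42 nucleus-encoded respiratory chain genes 22 were tested, 0 were higher and 12 were not called, with a median of -0.71. The 10 that were lower (beside 17.3% of all genes tested) included Ndufa4, Cox8a, Cox7a2 and Atp5e. The total-UMI scaling called 14 lower, beside 182 of all 504 genes. Cox8a and Ndufa1 changed sign, uncalled, among barcodes with at least 200 genes. The share of mitochondrially encoded genes in the non-globin sum was 4.16% and 3.47%, against 2.16% and 2.05%, but the rule had limited this share and it was not tested. A few barcodes held much of it: in replicate 1, the 6 barcodes with over 5% mitochondrial UMIs held 4288 of 9348 such UMIs, and the others' share was 2.36%. In replicate 2, 5 barcodes held 815 of 5941, and the others' share was 3.07%. The median barcode had 1.96% and 2.60%, against 1.63% and 1.82%. Among 30 translation factors, 11 of them tested, Pabpc1 (0.46) and Eif5 (0.40, which is -0.04 with total UMIs alone) were higher and Eif1, Tpt1 and Eif3k were lower. These calls stand beside 15.1% higher and 17.3% lower over all genes tested. Scaled by total UMIs, 0 were higher and 4 lower, beside 25 and 182 of all 504 genes.

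Of 30 antioxidant genes 14 were tested. The peroxiredoxins Prdx1 and Prdx2, Gpx1, Hagh, a glyoxalase, and Glrx5, a glutaredoxin of iron-sulphur cluster assembly, were lower, Cat, catalase, was higher, and the median was -0.51. These 5 lower and 1 higher of 14 stand beside 17.3% lower and 15.1% higher over all genes tested. With total UMIs alone they were 8 and 1, beside 182 and 25 of all 504 genes. Of 34 haem and iron genes 13 were tested, with 5 lower and 1 higher, beside 17.3% and 15.1% over all genes tested. The ferritin genes Fth1 (-1.08) and Ftl1, Iscu, the iron-sulphur scaffold, Glrx5 and Alas2 were lower, and Slc25a37, mitoferrin, was called higher with TMM scaling (0.40) and stood at -0.04 with total UMIs alone. Fech, which inserts iron into haem, was not called and stood at -0.30 with total UMIs alone. That scaling called 9 genes of the list lower and 0 higher, beside 182 and 25 of all 504 genes. Among 45 mitophagy, autophagy and ubiquitin genes, 21 of them tested, Trim10 and Ube2o, a ubiquitin ligase that drives clearance of ribosomes, were higher with TMM scaling (2 of 21, beside 15.1% over all genes tested). Of the 7 that were lower (beside 17.3% over all genes tested), 6 were Gabarapl2, Ubb, Map1lc3b, Ube2l6, Mkrn1 and Bnip3l, with a list median of -0.08. Scaled by total UMIs, 0 were higher and 12 lower, beside 25 and 182 of all 504 genes.

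The 28 late red cell genes, 23 of them tested, held calls in both directions with TMM scaling. Trak2, Xpo7, Ranbp10, Tmcc2 and Slc25a37 were higher and 9 were lower, beside 15.1% and 17.3% over all genes tested, with a median of -0.07. By total UMIs only Trak2 was higher, 15 were lower and the median was -0.51. Over all 504 genes that scaling called 25 higher and 182 lower, with a median of -0.53. Trak2 had 67 and 39 UMIs against 8 and 3, a change of 2.83 (SE 0.337, adjusted p = 0.00542). It was still called without the 2 gene-rich barcodes (2.40). Xpo7 went from 1.30 (adjusted p = 0.0308) to 0.70 (0.0652) without them, and Tmcc2 from 0.92 (0.0263) to 0.60 (0.0688), so neither call held. Of the 6 interferon-response genes tested, of 30, Isg20 and Ube2l6 were lower (beside 17.3% of all genes tested). Rsad2, Isg15, Irf7 and Ifi27 were not called. Rsad2, viperin, was found in 75.2% and 74.6% of barcodes and Isg15, a ubiquitin-like protein, in 34.9% and 34.1%. Without the gene-rich barcodes Rsad2 (0.44), Isg15 (0.73) and Irf7 were called higher, beside 95 of all 498 genes tested in that setting. The libraries differed here: with all barcodes Isg15 changed by 1.64 in replicate 1 and -0.04 in replicate 2, Irf7 by 1.69 and 0.49 and Rsad2 by 0.68 and 0.21.

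Few genes of the remaining lists had enough counts. Their calls stand beside 15.1% higher and 17.3% lower over all genes tested, or 25 and 182 of 504 with total UMIs alone. Of 38 regulators, 9 of them tested, Mxd1, a MAX partner that opposes MYC, E2f2, a cell cycle factor of red cell precursors, and Bcl2l1, which protects maturing red cells from death, were higher, though Mxd1 could not be tested without the gene-rich barcodes. Mxd1 and Bcl2l1 were higher and Tent5c was lower with total UMIs alone. Of 36 precursor and cell cycle genes 5 were tested, and Cd36, a fatty acid receptor, and Cdc25b, a cell cycle phosphatase, were higher; with total UMIs alone only Cdc25b was. Ube2c, the ubiquitin-conjugating enzyme of mitosis, had 215 and 145 UMIs, of which 1 barcode held 25 and 42; it was not called, but was called lower with total UMIs alone. Of 19 glycolysis genes Bpgm and Gapdh were tested and Bpgm was lower. Of 35 proteasome genes 2 were tested and 0 called.

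The largest rises were in genes with few UMIs. After Trak2 they were Clcn3 (2.53), a chloride-proton exchanger, Wnk1 (2.43), a kinase that regulates ion cotransport, Mxd1 (2.25), Gpcpd1 (1.88), Sp100 (1.84), a nuclear body protein, Usp32 (1.81), Hectd4 (1.75), Hipk1 (1.54), Wasf2 (1.505), Stom (1.49) and Itsn1 (1.47). In 7 of these 12 the barcode with 609 genes held between 34.5% and 57.1% of the UMIs of replicate 1. Without the gene-rich barcodes 9 of the 12 could be tested and all 9 were called, while Clcn3, Mxd1 and Gpcpd1 had too few counts. A gene could pass the count filter through the sums of either set alone, as Clcn3 did (19 and 13 UMIs against 3 and 1). The ranking of the rises is therefore only a description, of genes partly admitted where they were high. Hipk1, a nuclear kinase, rested on many barcodes: it had 133 and 99 UMIs against 39 and 21, and no barcode held more than 7 of them.

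Among the 12 largest falls were Hist1h1c (-2.78, with 1 and 4 UMIs against 11 and 16), Gm8797 (-2.53), Borcs8 (-2.16), Rpl10a (-1.71), Atp5mpl (-1.58), Prdx1 (-1.57), Rps7 (-1.37), Hist1h2bc (-1.36), Ubl5 (-1.35), Rps13 (-1.32) and Ndufa4 (-1.29). Hist1h1c and Hist1h2bc encode histones. Ribosomal protein and histone genes have near-identical copies elsewhere in the genome, and reads shared with a copy cannot be assigned with certainty. All 12 were called lower without the gene-rich barcodes as well. Here too a gene could pass the count filter through either set alone, as Hist1h1c did through the comparison. The ranking of the falls is therefore only a description.

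The genes that differed also differed in length, a property the rule did not use. The longest annotated transcript had a median of 4390 bases over the 76 higher genes, 1395 over the 87 lower genes and 2520 over the 341 not called. Median exon numbers were 10, 4 and 6. Ordered by length, the 168 shortest genes (up to 1725 bases) held 5 higher and 54 lower calls, the 168 in the middle 17 and 24, and the 168 longest (from 3399 bases) 54 and 9. With total UMIs alone the counts were 2 and 102, 5 and 55, and 18 and 25, so the longest genes then held more lower than higher calls, and their median change was 0.05. With TMM scaling the median changes were -0.58, -0.04 and 0.49. In replicate 1 they were -0.54, -0.09 and 0.42, and in replicate 2 -0.55, -0.04 and 0.59.

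Across the 504 genes, which are not independent replicates and share the same 4 sums, Spearman's rho between length and change was 0.57 (0.48 in replicate 1 and 0.56 in replicate 2), given with no p. It was 0.57 with total UMIs alone and 0.55 without the gene-rich barcodes. There were exceptions: Gm42418, Cmss1 and AY036118 are annotated at 1831, 1150 and 923 bases and were called higher, and Oaz1, an antizyme that limits polyamines, at 2526 bases, fell by 1.14 on the log2 scale.

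**Figure D5:**
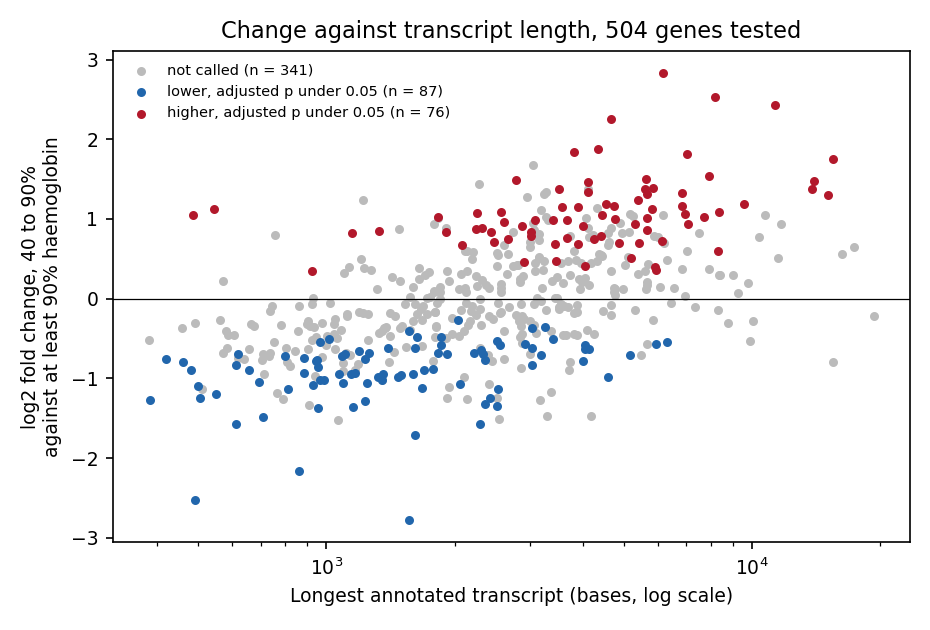
Each point is 1 of 504 genes tested. The horizontal axis gives its longest annotated transcript (bases, log scale) and the vertical axis its log2 fold change, 40 to 90% against at least 90% haemoglobin, with 76 genes called higher in red, 87 called lower in blue and 341 not called in grey. Red points gather at the long end and blue points at the short end.

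Start sites of genes from each side are shown so that the promoters of a haem gene (Alas2), of the gene with the largest rise (Trak2) and of a gene that fell (Gpx1) can be set beside each other. The sequences are RefSeq's (GRCm38.p6), 250 bases before to 50 bases after the start, 5′ to 3′ on the gene's strand. Capitals mark AGATAA or TGATAA, or either on the opposite strand, the letters bound by GATA factors such as GATA1 of red cells. Alas2 lies at chrX:150547167-150547466 (plus), Trak2 at chr1:58973433-58973732 (minus) and Gpx1 at chr9:108338830-108339129 (plus).
Alas2: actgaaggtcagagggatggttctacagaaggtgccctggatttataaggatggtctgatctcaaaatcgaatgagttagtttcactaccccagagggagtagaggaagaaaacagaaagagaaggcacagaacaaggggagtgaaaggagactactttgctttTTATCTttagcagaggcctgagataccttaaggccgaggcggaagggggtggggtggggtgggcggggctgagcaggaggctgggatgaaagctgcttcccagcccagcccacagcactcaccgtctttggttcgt
Trak2: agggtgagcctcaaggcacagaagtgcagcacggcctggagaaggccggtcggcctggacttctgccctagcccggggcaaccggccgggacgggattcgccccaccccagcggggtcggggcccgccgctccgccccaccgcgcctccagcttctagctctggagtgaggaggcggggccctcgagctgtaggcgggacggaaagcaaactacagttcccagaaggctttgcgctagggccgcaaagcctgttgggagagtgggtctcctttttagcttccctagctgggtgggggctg
Gpx1: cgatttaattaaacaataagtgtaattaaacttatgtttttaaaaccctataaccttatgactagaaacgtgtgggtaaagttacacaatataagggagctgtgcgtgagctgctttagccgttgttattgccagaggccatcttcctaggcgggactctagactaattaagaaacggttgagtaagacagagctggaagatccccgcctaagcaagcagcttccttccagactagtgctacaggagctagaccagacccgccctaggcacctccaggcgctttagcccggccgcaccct
Alas2 held 1 such match in this window, and Trak2 and Gpx1 held 0. The letters occurred in 19.0% of all 27025 promoters of this length, in 11 of 56 promoters of higher genes (19.6%), in 5 of 67 of lower genes (7.46%) and in 24 of 269 of genes not called (8.92%). The letters CCACCC, in either direction, occurred in 30.9% of all promoters, in 35.7% for higher, 38.8% for lower and 34.2% for uncalled genes. A match is a description of the letters and not a binding site.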

How the data were processed

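The deposited files hold raw UMI counts per gene and barcode for 2 libraries of 1 group, made by the authors with Cell Ranger 7.1.0 per the file headers. The submitters' processing notes also name Seurat 5 and the mm10 build. The calling of barcodes and any removal of doublets are not given in the sources used here. No doublet caller was run, so doublets were looked for only through the other-cell markers of each barcode. The 2 libraries shared 0 barcodes. Of 32285 gene IDs, 32235 matched GENCODE M21, from which places and transcript lengths were taken.

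The barcodes with 40 to 90% haemoglobin and the gene lists were chosen with earlier results of these data known. Levels are counts per 1e6 UMIs outside the 4 adult globin genes. Sums per set and library were tested in edgeR 4.0.16 (R 4.3.3) with filterByExpr, TMM scaling, the quasi-likelihood test and the library as a block. The block was used because both sums of a library come from the same blood preparation. This left 1 residual degree of freedom, so the spread was mostly the one shared across genes. SEs were taken from the test's F value. The 10 globin and all mitochondrially encoded genes were left out. Benjamini-Hochberg adjustment ran over all 504 genes, with a threshold of 0.05. DESeq2 1.42.0 was an alternative. The code was tested on simulated data.

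Genes named are the 20 with most UMIs, the given markers, the 12 largest called changes in each direction (same sign in both libraries, at least 20 UMIs) and the 4 leading genes of each list; a few that the rule names are not reported here. Others named are called list genes or were picked after their values were seen. Correlations were computed in scipy 1.17.1. Intervals and floors cover counting error only.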

Additional observations from a re-analysis of the deposited data

How the results depend on the processing

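The numbers of genes called higher and lower, 76 and 87, stayed within 1.5 times with RLE size factors (78 and 63), no filter on low counts (96 and 64, but of 4405 genes tested against 504), no replicate block (77 and 83), a mitochondrial limit of 10%, members of 50 to 85% against at least 92%, and without barcodes carrying other-cell markers, the rRNA-overlapping loci or the 2 gene-rich barcodes. They did not with total UMIs alone (25 and 182), at least 200 detected genes (36 and 21 of 298 genes tested) or DESeq2 (34 and 26, with 293 adjusted p-values not given). The higher genes' part of all calls was 46.6%, 12.1% with total UMIs alone, 60% with no filter, 63.2% with at least 200 genes and 56.7% in DESeq2. Of the 163 calls, 139 kept their sign and call with the other size factors, 112 with total UMIs, 156 without the block, 59 in DESeq2, 50 with at least 200 genes and 157 without the gene-rich barcodes. With total UMIs alone the log2 fold change turned to -0.32 for Tent5c, -0.036 for Eif5, -0.041 for Slc25a37, -0.091 for AY036118 and -0.30 for Fech, and with at least 200 genes to 0.020 for Cox8a and 0.39 for Ndufa1. Without the replicate block Alas2, Stom and Hist1h2bc lost their call. The causes were not tested. The share of the 40 to 90% barcodes was 17.7% in replicate 1 and 34.9% in replicate 2 with at least 200 genes, and 46.1% in replicate 2 with at least 50. Leaving out a library leaves 1 sum against 1, with no test, so no count exists for it; fold changes of called genes named above kept their sign in each library alone. Counts of 20 to 100 UMIs limit the precision of the genes with the largest changes.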
